A study of Homo sapiens with 12 samples.

Results

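The expression of 9 genes of the machinery that detects nucleic acid in the wrong place in a cell was examined in senescent and non-senescent human beta-like cells. They were *TREX1*, *SAMHD1*, *DDX58*, *IFIH1*, *DHX58*, *TLR3*, *MAVS*, *TBK1* and *IRF3*, chosen by name as a functional set, and each matched 1 row of an expression table with 35337 genes, so that 9 of 35337 were followed. The cells were EndoC-βH3, a single line derived from human fetal pancreas and made to divide by 2 transgenes, SV40 large T antigen and human telomerase (hTERT), both of which can be cut out by a tamoxifen-activated Cre recombinase (CreER). The 6 non-senescent samples (treatment label control) kept the transgenes, and the 6 senescent samples had received 4-hydroxytamoxifen for 3 weeks. Both groups carried the genotype label WT and the same CreER, and no agent that stimulates these sensors is named for either group. Batch A supplied 2 samples of each group and batch B supplied 4, by the letter in the sample titles. The labels do not say whether samples of 1 batch were separate cultures, so p-values measure the spread between these samples, which may be technical.

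Cells recognise stray nucleic acid through a small number of receptors. RIG-I (the product of *DDX58*) and MDA5 (*IFIH1*) bind double-stranded RNA in the cytosol and pass the signal to MAVS on the mitochondrial surface, TLR3 binds double-stranded RNA inside endosomes, and cGAS binds double-stranded DNA and signals through STING. The routes meet at the kinase TBK1, which phosphorylates IRF3, a transcription factor that then drives type I interferon genes. TREX1, a DNA exonuclease, and SAMHD1, which hydrolyses deoxynucleotides, keep these routes quiet by limiting the nucleic acid that could set them off.

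Messenger RNA was read by CEL-seq, which sequences the 3′ end of each transcript, and a normalised read count here is a gene's reads divided by a size factor of its library. Libraries held 8873569 to 17106776 reads in batch A and 4672924 to 7063264 in batch B, and a gene with 0 reads could still have up to 3 reads by counting error, a share of 0.175 to 0.642 ppm. The group labels were reflected in *MKI67*, a proliferation gene, which was at 537 ± 138 normalised reads in non-senescent and 73.6 ± 11.0 in senescent cells (mean ± SD, n = 6), and in *CDKN1A*, the cell cycle inhibitor p21, at 45.1 ± 20.2 and 981 ± 661. *TERT*, the gene that the excised telomerase transgene is made from, was not lower in senescent cells, at 97.3 ± 36.0 and 113 ± 23.6 (log2 fold change 0.28 ± 0.13, SE, adjusted p = 0.107, limma; 0.65 in batch A and 0.09 in batch B). All 10 beta cell markers examined passed the filter on low values, among them insulin (*INS*), at 19853 ± 8849 in non-senescent and 99547 ± 60362 in senescent cells. Of these 10, *INS*, *IAPP* and *PDX1* rose, *PCSK1*, a prohormone convertase, fell (log2 fold change -1.06), and 6 were not called. Those 6 were *ISL1* (0.34), *PAX6* (0.25), *NKX2-2* (-0.06), *SLC30A8* (-0.16), *NEUROD1* (-0.22) and *NKX6-1* (-0.37). A call needed a change of more than 1.5-fold and an adjusted p under 0.1. *ISL1* (adjusted p = 0.000788), *PAX6* (0.0181), *NEUROD1* (0.00769) and *NKX6-1* (0.0137, limma) missed only the fold limit. *NKX2-2* (0.581) and *SLC30A8* (0.237) missed both. Somatostatin (*SST*), the hormone of delta cells, was also abundant, at 206128 ± 55827 and 128684 ± 10385. In such bulk samples a change in the number of cells expressing a gene and a change in RNA per cell cannot be told apart.

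*MAVS*, *IRF3*, *TBK1* and *SAMHD1* differed by less than 1.5-fold between the groups within their 95% intervals, and the other 5 genes had too few reads for such a bound. Of the 9 genes, 7 had a mean of at least 5 normalised reads and were tested, and 0 of the 7 were called different, where a call needed a change of more than 1.5-fold with an adjusted p under 0.1 in limma. The background was high, since 3237 of 13847 genes tested (23.4%) were called by the same rule. At an unadjusted p under 0.05, limma and edgeR gave 0 of the 7 genes, beside 46.7% of all genes in limma. DESeq2 called 0 of the 8 genes for which it gave an adjusted p and had 1, *TREX1*, at an unadjusted p under 0.05 (adjusted p = 0.112, with a fitted log2 fold change of -3.28 that rests on 5 senescent libraries at 0). The median log2 fold change was -0.12 over the 7 genes and 0.01 over all genes tested, and the median size of the change, without its sign, was 0.12 and 0.33. In 0 of the 9 genes did the groups stay apart in both batches, against 23.8% of all genes tested.

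**Figure D1:**
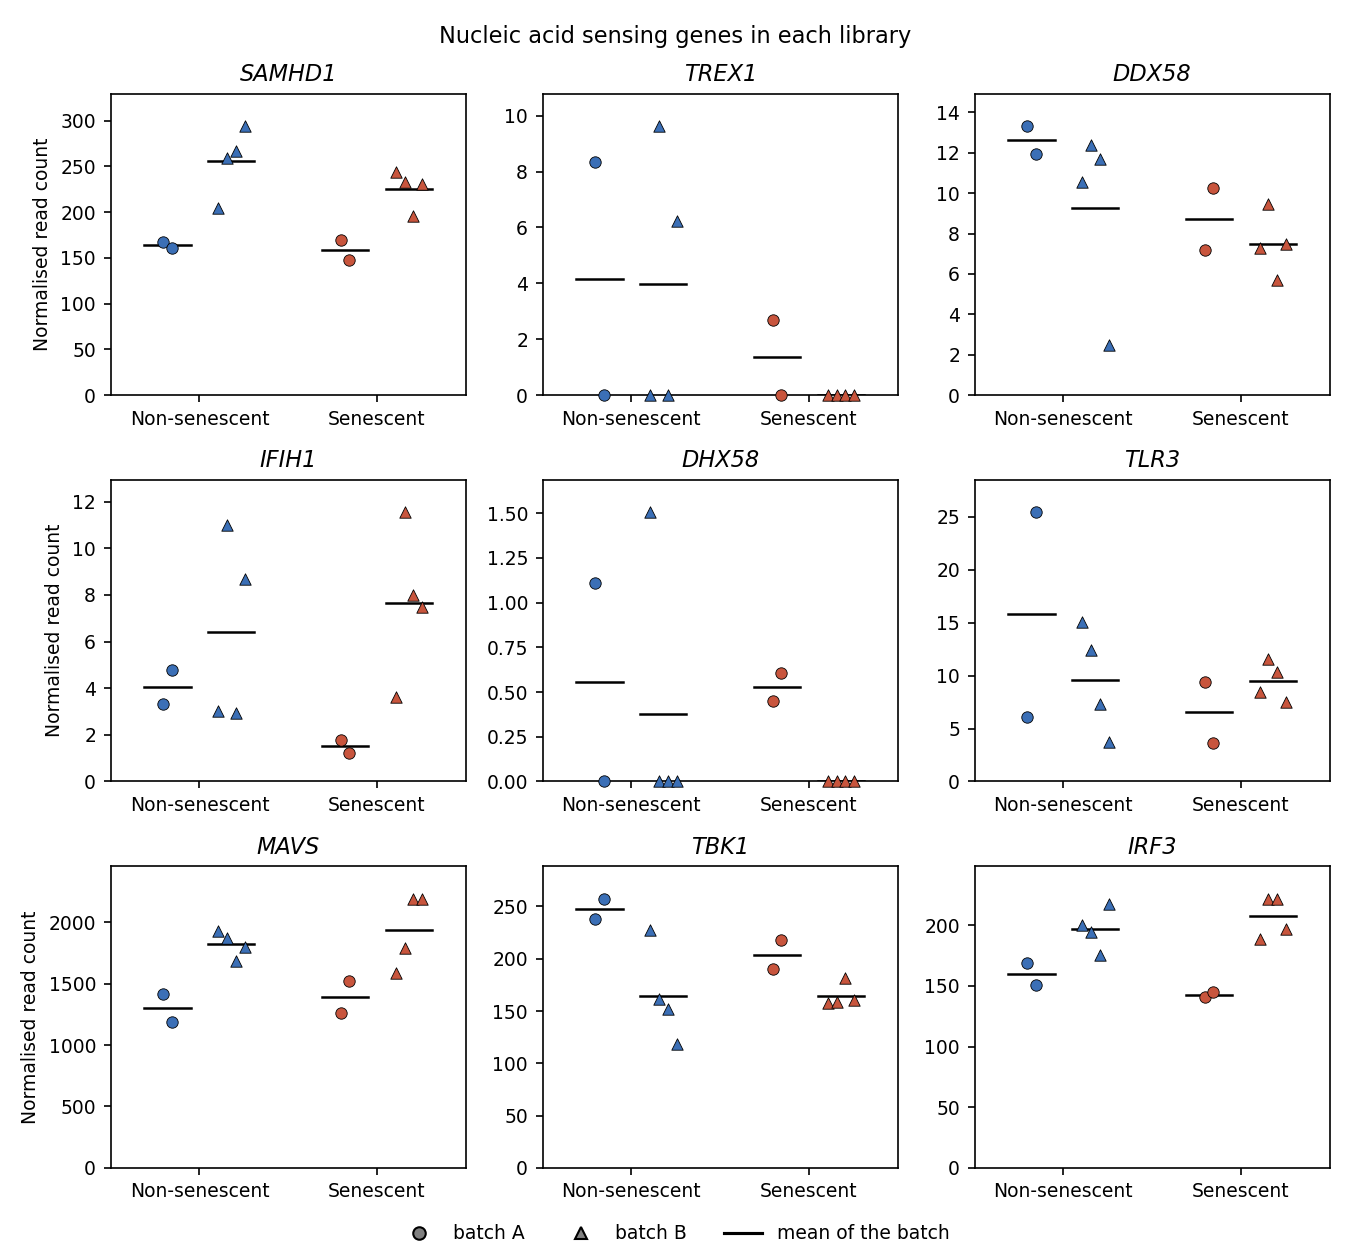
Normalised read count (vertical axes, each from 0) of the 9 sensing genes in the 12 libraries, by group, with circles for batch A, triangles for batch B and a bar at the mean of each batch. The groups overlap in every panel, *TREX1* and *DHX58* have libraries at 0, and *SAMHD1*, *MAVS* and *IRF3* are higher in batch B than in batch A in both groups.

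*MAVS*, the adaptor that joins RIG-I and MDA5 to the kinases, was the best measured of the genes, with 9277 reads over the non-senescent libraries and 12026 over the senescent ones. Its normalised count ran from 1183 through a median of 1738 to 1929 in non-senescent cells and from 1264 through 1689 to 2192 in senescent cells. These ranges lay almost on top of each other. The means were 1647 ± 290 and 1758 ± 375, which differ by 0.09 ± 0.09 on the log2 scale (SE, adjusted p = 0.464, limma), with 0.10 for batch A and 0.08 for batch B. The 95% interval of the fold change was 0.935 to 1.21. The gene lies at chromosome 20, 3846799 to 3876123, on the forward strand of GRCh38 (GENCODE v44), where no other annotated gene overlaps it.

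*IRF3*, the transcription factor at the end of the route, was at a normalised count of 151 to 217 with a median of 185 in non-senescent cells, and at 141 to 222 with a median of 193 in senescent cells. The means of 185 ± 24.0 and 186 ± 35.8 were nearly equal. They gave a log2 fold change of only -0.0027 ± 0.098 (SE, adjusted p = 0.987, limma), with a 95% interval for the fold change of 0.864 to 1.15. It lies at chromosome 19, 49659569 to 49665875, on the reverse strand, and its 5′ end overlaps *BCL2L12* on the opposite strand. *BCL2L12* does not reach the 3′ end of *IRF3*, the part that these libraries read.

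*TBK1*, the kinase that activates IRF3, was at 118 to 257 with a median of 194 in non-senescent and at 158 to 218 with a median of 171 in senescent cells. The senescent libraries all fell within the non-senescent range. The fitted log2 fold change, -0.07 ± 0.13 (SE), did not pass (adjusted p = 0.725, limma), and had a 95% interval for the fold change of 0.782 to 1.16. The batches differed in appearance, since the 2 senescent libraries of batch A (190 and 218) lay below its 2 non-senescent ones (238 and 257), while in batch B the means were 165 in both groups. Within batch A alone the log2 fold change was -0.28, with an adjusted p of 0.0799 (limma) and a size under the limit of 1.5-fold, and within batch B it was 0.04. Over both batches edgeR gave -0.11 and DESeq2 -0.10. The difference between the batches in the effect of senescence was 0.32 on the log2 scale (adjusted p of the interaction 0.649, limma). The gene lies at chromosome 12, 64452090 to 64502114, on the forward strand, and a long non-coding RNA gene (ENSG00000288665) on the same strand covers its 3′ end.

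*SAMHD1*, which lowers the supply of deoxynucleotides, was at 161 to 294 with a median of 232 in non-senescent and at 148 to 244 with a median of 213 in senescent cells. The groups overlapped over most of their range. The means of 226 ± 55.8 and 203 ± 38.7 differed by -0.13 ± 0.10 on the log2 scale (SE, adjusted p = 0.338, limma), and the 95% interval of the fold change was 0.782 to 1.06. Within batch A the difference was -0.05 and within batch B -0.18. When every library was scaled to the same total, the log2 fold change was -0.24 with an adjusted p of 0.085, still under the fold limit, and under that scaling the median of all genes was itself at -0.09. The gene lies at chromosome 20, 36890229 to 36951893, on the reverse strand, and its 3′ end overlaps *TLDC2* on the opposite strand, a gene with 15 reads over the non-senescent libraries and 129 over the senescent ones. Whether reads were counted by strand is not stated, and *SAMHD1* itself had 1248 and 1402 reads.

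For these 4 genes the 95% interval of the difference lay wholly inside a 1.5-fold change in either direction, which was so for 37.3% of all genes tested. The other 3 genes tested, the RNA receptors, had so few reads that their intervals reached past 1.5-fold.

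**Figure D2:**
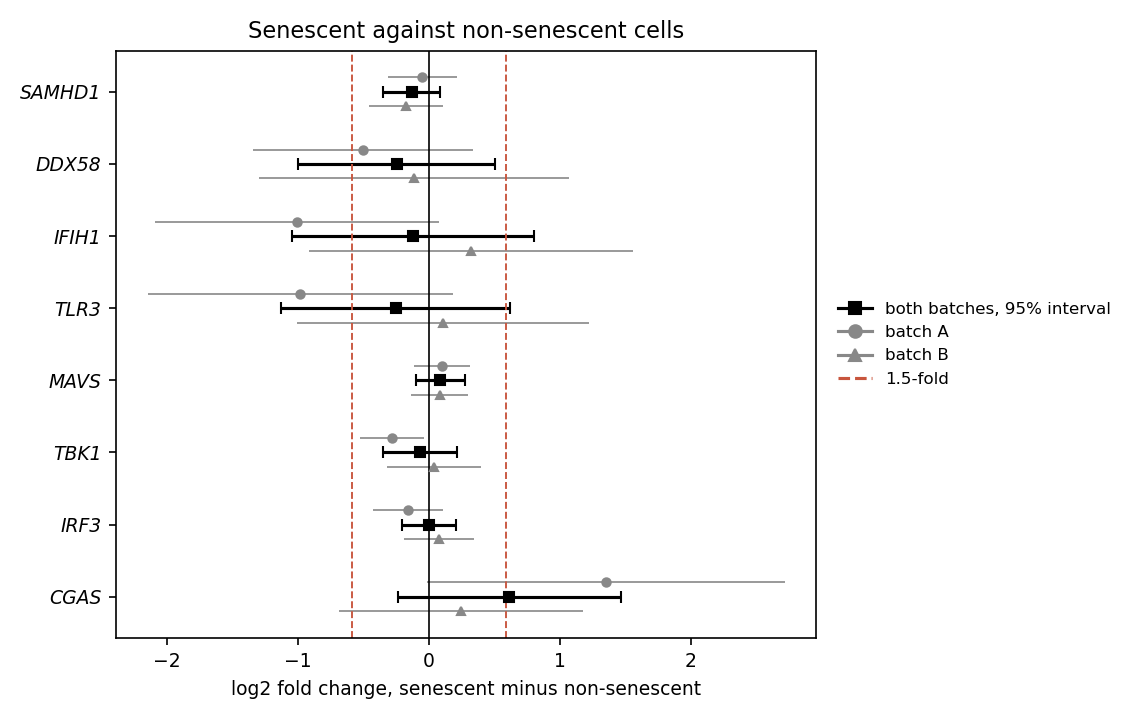
Log2 fold change of senescent over non-senescent cells (horizontal axis) for the 7 sensing genes tested and *CGAS*, over both batches (black squares with 95% intervals) and within batch A and batch B (grey, with 95% intervals), with dashed lines at 1.5-fold. The intervals of *MAVS*, *IRF3*, *TBK1* and *SAMHD1* stay between the dashed lines, and those of *DDX58*, *IFIH1*, *TLR3* and *CGAS* cross at least 1 of them.

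*DDX58*, now named *RIGI*, encodes RIG-I, which recognises short double-stranded RNA with a 5′ triphosphate. It had 65 reads in all non-senescent and 59 in all senescent libraries. Its normalised count was 2.48, then 10.5 to 13.3 in the other 5 non-senescent libraries, with a median of 11.8, and 5.72 to 10.3 with a median of 7.37 in senescent cells. Only the low library, non-senescent B4 with 2 reads, made the groups overlap. The difference of -0.25 ± 0.36 on the log2 scale did not pass (SE, adjusted p = 0.625, limma). On the recovered reads it was -0.40 in edgeR and in DESeq2, with adjusted p-values of 0.424 and 0.522. Without non-senescent B4 the limma value was -0.55, and with that library left out the adjusted p of 0.141 was the lowest of any alternative. The gene lies at chromosome 9, 32455302 to 32526208, on the reverse strand. A protein-coding gene without a symbol (ENSG00000288684, 32455323 to 32552603) on the same strand covers all of it but the last bases and was not found in the table, so reads of that gene and of *DDX58* cannot be told apart.

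*IFIH1* (chromosome 2, 162267074 to 162318684, reverse strand) encodes MDA5, which recognises long double-stranded RNA, and *TLR3* (chromosome 4, 186068911 to 186088073, forward strand) the endosomal receptor. *IFIH1* had 31 reads over the non-senescent libraries and 33 over the senescent ones, and its normalised count was 2.92 to 11.0 (median 4.05) and 1.21 to 11.5 (median 5.55). Its difference was -0.12 ± 0.44 on the log2 scale (SE, adjusted p = 0.852, limma). In edgeR it was -0.24 and in DESeq2 -0.25. *TLR3* had 70 and 60 reads, and was at 3.73 to 25.4 (median 9.85) and 3.62 to 11.5 (median 8.95), a difference of -0.26 ± 0.41 on the log2 scale (SE, adjusted p = 0.667, limma). On the recovered reads, without a pseudocount of 1, the log2 fold change of *TLR3* was -0.48 in edgeR and -0.47 in DESeq2, with adjusted p-values of 0.423 and 0.527. The highest *TLR3* value, 25.4 in non-senescent A2, stood well above the others, and without that library the log2 fold change was 0.07. Both genes were lower in the senescent libraries of batch A (log2 fold changes of -1.01 for *IFIH1* and -0.98 for *TLR3*) and slightly higher in those of batch B (0.32 and 0.11), with 2 to 32 reads behind each value. The interaction of batch and group had an adjusted p of 0.515 for *IFIH1* and 0.604 for *TLR3* (limma). No sensing gene tested had an interaction at an adjusted p under 0.1, nor at an unadjusted p under 0.05, in limma or edgeR, against 4.21% of all genes at the first limit and 15.2% at the second in limma.

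The promoters of these receptors can be read for the interferon-stimulated response element, the DNA word bound by IRF3 and its relatives, because several sensors are themselves interferon-induced genes. Its core, GAAA followed by any 2 bases and again GAAA, was searched on both strands of the 300 bases around the start site (250 before, 50 after) in RefSeq promoters on GRCh38.p14, where 7 of the 9 genes had an entry. It was present in 2 of the 7, *IFIH1* and *TLR3*, and in 1255 of 35116 promoters (3.57%). *IFIH1* had 3 matches and *TLR3* had 1. They are shown as 30-base windows on the gene's own strand, 5′ to 3′, with the match in capitals, to let the spacing and strand of the words be seen:
*IFIH1*, reverse strand, chr2:162318824-162318853: gagaattcgcTTTCCTTTTCtgtttcccgc
*IFIH1*, reverse strand, chr2:162318686-162318715: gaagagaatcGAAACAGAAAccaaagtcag
*TLR3*, forward strand, chr4:186069142-186069171: caagctttacTTTCACTTTCgagagtgccg
The first and last of these read as the motif on the opposite strand. The remaining *IFIH1* match, at positions -153 to -144 counted from the start site, overlaps the first, at -159 to -150, and the second is at -21 to -12. The *TLR3* match spans the start site, from -4 to 6. *DDX58*, *MAVS*, *SAMHD1*, *TBK1* and *TREX1* had no match in their windows, which says only that these letters are not there. *IFIH1* and *TLR3* did not pass the test between senescent and non-senescent cells.

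*DHX58* (chromosome 17, 42101404 to 42112714, reverse strand) encodes LGP2, a helicase without its own signalling domain that tunes MDA5 and RIG-I. It was hardly read, with 3 reads in 2 of 6 non-senescent libraries and 2 reads in 2 of 6 senescent ones. No library had over 2 reads, where a library with 0 reads could still have up to 3 by counting error. Its difference of -0.20 on the log2(value + 1) scale had an exact two-sided permutation p of 0.667, with group labels permuted within batches. That difference is not read as a fold change, since every library was under that limit.

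*TREX1*, the exonuclease that degrades cytosolic DNA, was also under the filter. Its reads over the non-senescent libraries were 15 and 0 for batch A and 0, 7, 0 and 5 for batch B, while the senescent ones had 6 and 0 for batch A and 0 in all 4 of batch B. Reads were therefore seen in 3 of 6 non-senescent libraries and in 1 of 6 senescent ones. The difference of -1.27 on the log2(value + 1) scale had an exact two-sided permutation p of 0.214 over 420 arrangements within batches, the smallest possible p being 0.00476.

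The values of *TREX1* have a particular limit. The gene lies at chromosome 3, 48465811 to 48467645, forward strand, wholly inside *ATRIP* (48446710 to 48467645, same strand), which encodes a partner of the DNA damage kinase ATR, and 3 of the 9 annotated *ATRIP* transcripts end within 100 bases of the 3′ end of *TREX1*. Reads from that shared end can be given to either gene. *ATRIP* had 130 reads over the non-senescent libraries and 106 over the senescent ones, and libraries with no *TREX1* reads had 10 to 42 *ATRIP* reads. The reads of both genes were therefore summed, a step chosen after the values were seen. In non-senescent cells the sum was 27.8 and 33.4 normalised reads for batch A, and 21.1, 26.2, 23.4 and 19.9 for batch B. In senescent cells it was 15.3 and 18.1 for batch A, and 14.5, 15.7, 12.6 and 12.5 for batch B. Every senescent library was below every non-senescent one. Of all genes tested, 23.8% had groups apart in both batches and 23.4% were called. The means were 25.3 ± 4.96 and 14.8 ± 2.12, a difference of -0.73 ± 0.21 on the log2 scale (SE, adjusted p = 0.0101, limma), with an exact two-sided permutation p of 0.00476, the smallest that these arrangements can give. For *ATRIP* alone it was -0.50 ± 0.24 (SE, adjusted p = 0.118, limma). How much of the lower sum belongs to *TREX1* and how much to *ATRIP* cannot be told apart from these values. In batch B alone the summed difference, -0.67, had an adjusted p of 0.135 (limma) and was no longer called, and with a pseudocount of 8 it was -0.54, under the fold limit.

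**Figure D3:**
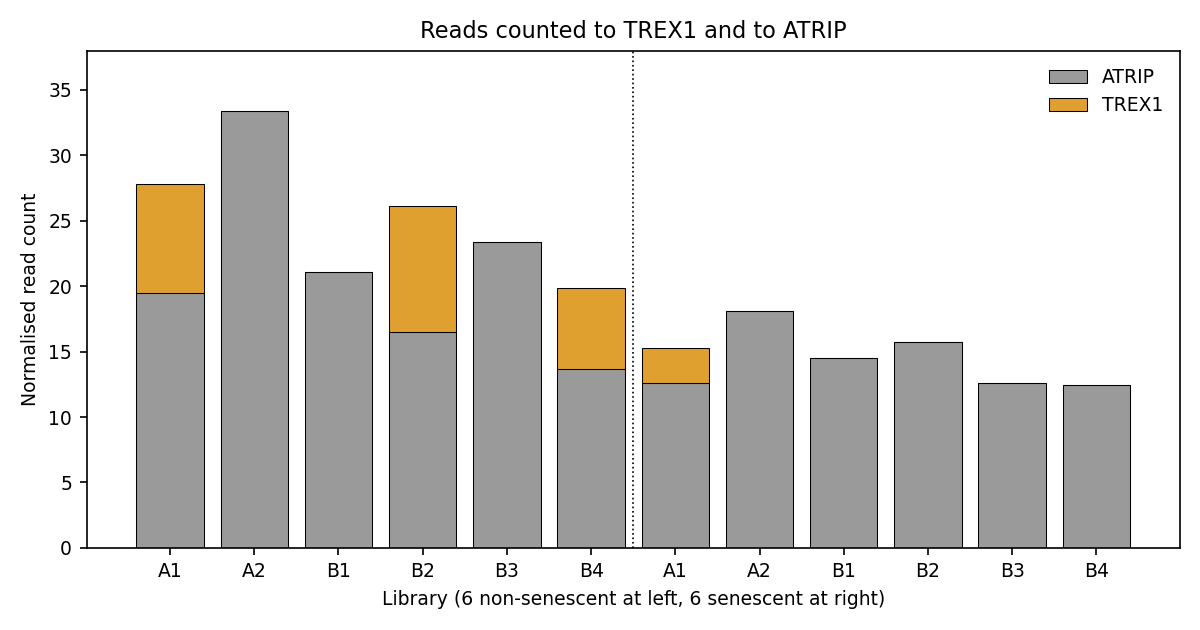
Normalised read count (vertical axis) given to *ATRIP* (grey) and to *TREX1* (orange, stacked on top) in each of the 6 non-senescent and 6 senescent libraries. *TREX1* appears in 4 libraries, and the stacked total is 19.9 to 33.4 in non-senescent and 12.5 to 18.1 in senescent libraries.

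Several of these genes differed more between the batches than between the groups. In the same fit the batch term had an adjusted p under 0.1 for 5 of the 7 genes tested, a comparison chosen after the values were seen. The share among all genes was 71.6%, so the count does not set these genes apart. *SAMHD1* was higher in batch B by 0.57 on the log2 scale, *MAVS* by 0.48, *IRF3* by 0.41 and *IFIH1* by 1.05, and the difference of *TBK1* was -0.47. Only *IFIH1* passed the limit of 1.5-fold as well, beside 53.1% of all genes. Group and batch were crossed in the design, 2 and 4 samples of each group, so both differences could be fitted together.

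**Figure D4:**
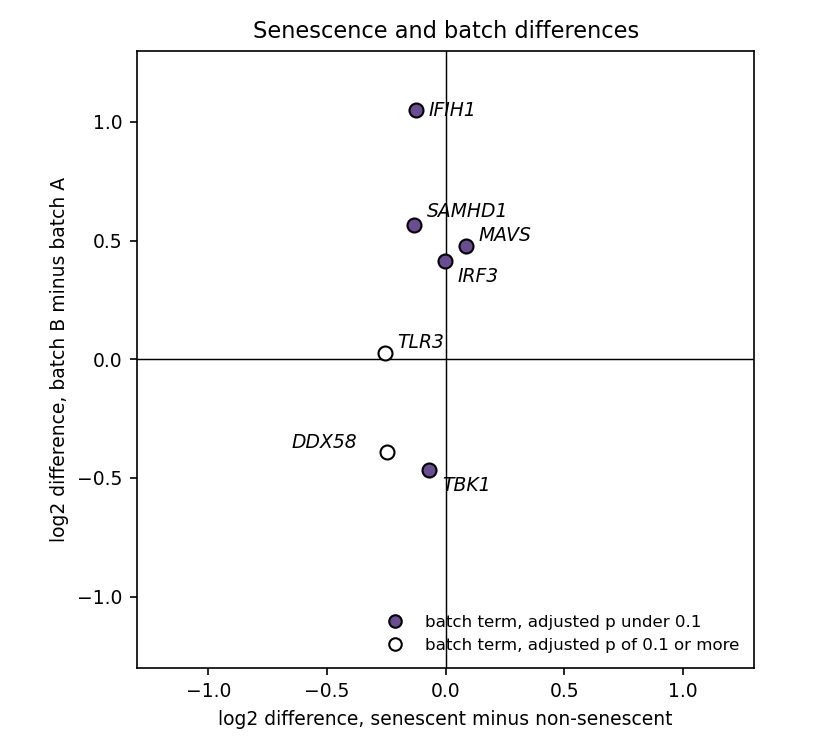
Log2 difference between senescent and non-senescent cells (horizontal axis) against log2 difference between batch B and batch A (vertical axis) for the 7 sensing genes tested, on equal scales. The 7 fitted values lie between -0.26 and 0.09 on the horizontal axis and are spread from -0.47 to 1.05 on the vertical one. Intervals are not drawn, and on the horizontal axis those of *DDX58*, *IFIH1* and *TLR3* reach past 1.5-fold.

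The DNA receptor of the same machinery was also looked up. *CGAS* had 47 reads over the non-senescent libraries and 72 over the senescent ones. It was at 0 to 19.3 normalised reads in non-senescent and at 4.49 to 17.2 in senescent cells, a difference of 0.61 ± 0.40 on the log2 scale (SE, adjusted p = 0.251, limma), and it was higher in batch B than in batch A by 2.01 (adjusted p = 0.000533, limma). *STING1*, listed under its older symbol *TMEM173*, had 0 reads in all 12 libraries, out of 97774075 reads in all. The 95% interval of the fold change of *CGAS* ran from 0.846 to 2.75, and why *STING1* had no reads was not tested.

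Genes around the sensors were called about as often as genes in general. Lists of 144 genes in 7 groups, compiled with earlier results of these data known, held 114 genes that passed the filter, of which 10 rose and 21 fell (27.2% called, against 23.4% of all genes, with 11.6% rising and 11.8% falling). The median log2 fold change of the 114 was -0.04. By list the share called ran from 14.3% for RNA sensors and cofactors and 16.7% for brakes, both under the share of all genes, to 44.4% for nucleases and removal of self nucleic acid and 50% for output cytokines, where it is 1 of 2 genes tested. Calls with groups apart in both batches and a mean of at least 20 are named here, up to 5 in each direction per list.

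Among 27 tested genes that degrade or shield self nucleic acid, 4 rose and 8 fell. *RNASEH2A*, the catalytic subunit of the ribonuclease that removes RNA from RNA-DNA hybrids, went from 352 ± 227 to 94.9 ± 55.9 normalised reads (log2 fold change -1.72 ± 0.15, SE). The 3 subunits of the single-strand DNA-binding protein RPA fell together, *RPA2* by 1.15, *RPA1* by 1.14 and *RPA3* by 0.89 on the log2 scale. *BANF1*, whose product coats DNA at the nuclear envelope, fell from 1037 ± 116 to 578 ± 89.7. On the other side *XRN1*, the main cytoplasmic 5′ exoribonuclease, rose from 59.4 ± 12.7 to 104 ± 10.9, and *PLD3*, a lysosomal exonuclease, from 422 ± 53.5 to 700 ± 61.5. These 7 genes had adjusted p-values of 0.000396 or less (limma). *DNASE1L1* (log2 fold change 0.82) also rose, and *RNASEH2B* (-0.86) and *RNASEH1* (-0.72) also fell, and these 3 are named after their values were seen because their groups were not apart in both batches.

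Among 15 tested genes of DNA sensing 0 rose and 4 fell (26.7% called, near the 23.4% of all genes). *HMGB2*, a chromatin protein that binds DNA, dropped from 277 ± 58.5 to 49.4 ± 19.2 normalised reads (log2 fold change -2.53 ± 0.16, SE, adjusted p = 2.4e-09, limma). *HMGB1*, its relative, fell by 0.71 and *MRE11*, a nuclease of double-strand break repair, by 0.65 on the log2 scale. The remaining gene was *PRKDC*, the DNA-dependent protein kinase, with a log2 fold change of -0.65, named after its value was seen. Several genes that fell have replication or repair roles, and *MKI67* (log2 fold change -2.83) and *TOP2A* (-2.64), markers of dividing cells, fell in the same libraries. The part of cell division in these changes was not tested.

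Among 21 tested RNA sensors, adaptors and cofactors, 2 rose and 1 fell. *NLRP1*, an inflammasome receptor that can bind double-stranded RNA, rose from 412 ± 80.4 to 814 ± 103 normalised reads (log2 fold change 0.99 ± 0.08, SE, adjusted p = 4.5e-08, limma). *TICAM1*, which encodes TRIF, the adaptor of TLR3, fell from 283 ± 39.2 to 156 ± 34.9 (log2 fold change -0.87 ± 0.10, SE, adjusted p = 4.2e-06, limma). The other gene that rose, *RNF135* (log2 fold change 0.96), a ubiquitin ligase that acts on RIG-I, is named after its value was seen.

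Among 20 tested genes that signal below the sensors, 2 rose and 3 fell (25% called, against 23.4% of all genes). *TRAF3*, a ubiquitin ligase between MAVS and TBK1, rose from 63.3 ± 45.2 to 152 ± 66.4 (log2 fold change 1.40 ± 0.16, SE), within batch A by 1.03 and within batch B by 1.59. *TRAF2* fell by 0.81 and *NFKB1*, the p50 subunit of NF-κB, by 0.89 on the log2 scale. *TRAF6* (log2 fold change 0.72) and *IKBKE* (-0.69), a kinase close to TBK1, made up the counts and are named after their values were seen. Among 24 tested genes listed as brakes on RNA sensing, 1 rose and 3 fell. *CYLD*, a deubiquitinase that restrains RIG-I, rose by 0.80. *USP18*, an inhibitor of the interferon receptor, fell by 1.13 and *RNF5*, a ligase that targets MAVS and STING, by 0.73. *PPP1CA*, a phosphatase acting on RIG-I and MDA5, fell by 0.68. Its action on these receptors activates them, so it is not a brake there. Adjusted p-values were 0.0222 for *TRAF6*, 0.0111 for *IKBKE* and 0.00106 or less for the other genes named from both lists (limma).

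Most output cytokines of the route were not read in either group. *IFNB1*, *IFNA1*, *IFNL1*, *IFNL2*, *IFNL3* and *CXCL10* had 0 reads in all 12 libraries, as did *ISG15*, an interferon-stimulated gene. Of other such genes, *IFIT2* had 1 read over the non-senescent libraries and 0 over the senescent ones, and *IFIT3* had 1936 and 2067. Why *ISG15* had no reads was not tested. Of 10 output cytokines only *TNFSF10* and *CCL5* passed the filter. *TNFSF10*, the death ligand TRAIL, rose from 18.3 ± 10.0 to 49.7 ± 20.9 normalised reads (log2 fold change 1.41 ± 0.22, SE, adjusted p = 7.7e-05, limma). *CCL5* was at 564 ± 301 and 556 ± 280, with an adjusted p of 0.809 (limma). Of 6 tested genes listed as double-stranded RNA effectors, 0 rose and 2 fell (33.3% called, against 23.4% of all genes). These were *OAS3* (log2 fold change -0.98), which makes oligoadenylates, and *EIF2AK2* (-0.67), which encodes the kinase PKR, both named after their values were seen. The others were *OAS1* and *IFIT1*, *IFIT3* and *IFIT5*, and the *IFIT* products are not activated by double-stranded RNA. The genes that the rule named from these lists had no interaction of batch and group at an adjusted p under 0.1.

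**Figure D5:**
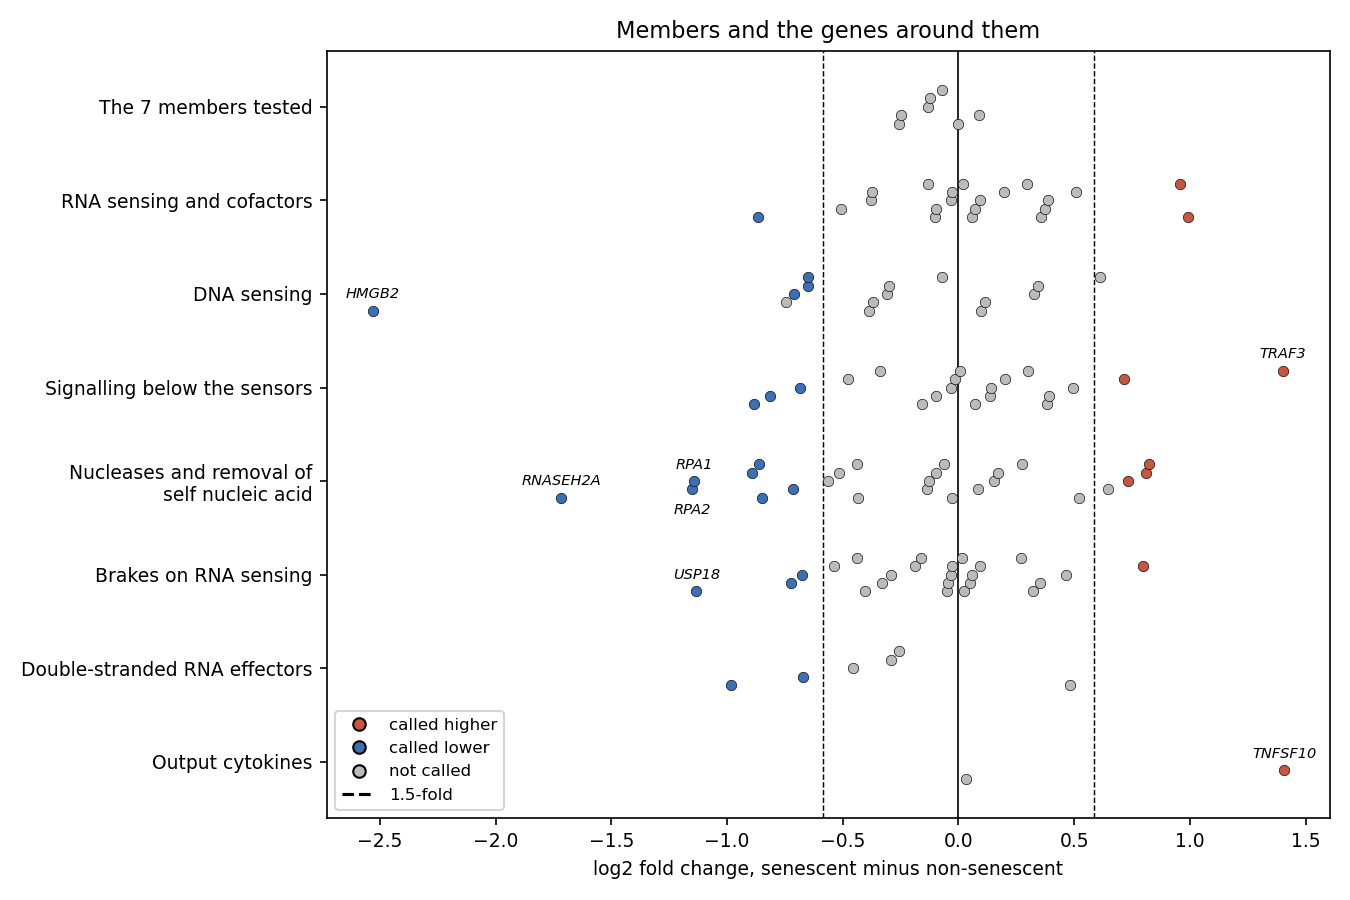
Log2 fold change of senescent over non-senescent cells (horizontal axis) for the 7 sensing genes tested and for tested genes of 7 related lists (2 are not shown), with red for genes called higher, blue for genes called lower, grey for genes not called and dashed lines at 1.5-fold. The fitted values of the 7 sensing genes lie between -0.26 and 0.09, with wide intervals for *DDX58*, *IFIH1* and *TLR3* that are not drawn. The genes shown from the lists reach from -2.53 for *HMGB2* to 1.41 for *TNFSF10*.

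Immune cells express many of these sensors, so their markers were read in the same libraries. Of 10 immune markers, *CSF1R*, *CD3E* and *NKG7* had 0 reads, 2 passed the filter, and the summed level of the list was 24.6 to 57.0 normalised reads in non-senescent and 18.4 to 42.0 in senescent libraries. Of the 2 that passed, *CD68* was not called, at 23.3 ± 8.90 and 25.4 ± 11.8 (log2 fold change 0.06, adjusted p = 0.880, limma). *PTPRC*, which encodes CD45, fell from 13.5 ± 8.58 to 3.26 ± 1.25, on totals of only 68 and 26 reads. The fall of *PTPRC* was uneven, with a log2 fold change of -0.34 in batch A and -2.20 in batch B. Its groups did not stay apart in both batches. Of 9 mesenchymal and endothelial markers, 3 passed the filter with 0 called, and the sum was 23.9 to 133 and 18.4 to 64.1. Of 10 acinar and ductal markers 2 passed the filter, *CPA1*, which rose, and *KRT19*, which fell, and the sum was 275 to 451 and 222 to 412. Of 7 markers of other endocrine cells 5 passed it, of which *SST*, *GCG* and *HHEX* fell, and the sum was 168718 to 292174 and 117458 to 148244. The part of these cell types in the values of the sensing genes was not tested.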

How the data were processed

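RNA of 12 EndoC-βH3 samples was sequenced from the 3′ end (CEL-seq). The labels and the study's methods name cutadapt for trimming, Salmon 0.13.1 with the GRCh38 build for quantification and DESeq2 for normalisation. The handling of molecular identifiers is not given in the sources used here, so a read may not be an independent molecule, and a floor allows for counting error alone. What the authors deposited is a signal per gene (its reads over the size factor of the library), and 100% of 196021 non-zero values were whole multiples of 1 read (tolerance 1e-06), so reads were recovered. The deposited table also holds the authors' own fold changes, scores and p-values, which were not used.

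The 9 genes, the lists and the tests were chosen with earlier results of these data known. Groups and batches came from the sample titles and every sample column was matched by name. Values were tested as log2(value + 1) with limma 3.58.1 (R 4.3.3, intensity trend, terms for batch and group) over all 13847 genes with a mean of at least 5, with Benjamini-Hochberg adjustment over all of them. A fold change is on that scale and understates changes of low genes. Genes under the filter had an exact permutation test within batches. The alternatives were edgeR 4.0.16 (quasi-likelihood) and DESeq2 1.42.0 on recovered reads, other pseudocounts, filters, scalings and limits, no batch term, single batches, a replicate block and each library left out. The limma fit was also run on simulated counts with the same dispersion for every gene. Its outcome is not given here, and it does not show how the test behaves on these libraries. Genes named from the lists were called, did not overlap between groups in either batch and had a mean of at least 20 (up to 5 per direction and list). No sensing gene was called, so genes of like pattern were not sought. *CGAS* and *STING1* were named whatever their values, and *MKI67* and *CDKN1A* served as a check of the labels. Replicate pairs within group and batch differed by 4.14 to 7.61 times sampling noise (chi-square over degrees of freedom, 14 pairs). Positions came from GENCODE v44. The values of 2 genes of the lists are counted but not reported here.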

Additional observations from a re-analysis of the deposited data

Results flagged for a closer look

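*DDX58* in the non-senescent library B4 stood apart from the rest of its group, at 2.48 normalised reads (2 reads) against 10.5 to 13.3 in the other 5 libraries. Its gap to the nearest library was 0.742 of the range of the group, over Dixon's critical value of 0.625 for 6 samples. In all 20 groups of values were checked, of which about 1 in 20 would be picked out by chance. *TREX1*, under the filter, was not picked out in senescent cells. There A1 was at 2.69 normalised reads (6 reads) and 5 libraries were at 0, a gap that spans the whole range of the group.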

How the results depend on the processing

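Under 14 alternative settings and with each of 12 libraries left out, 0 of 178 fits of a sensing gene gave a call, and 18 had the opposite sign to the value reported. Outside the left-out libraries these were batch B alone, with log2 fold changes of 0.32 for *IFIH1*, 0.11 for *TLR3*, 0.038 for *TBK1* and 0.076 for *IRF3*, scaling to the same total, with -0.020 for *MAVS*, and TMM scaling, with 0.0042 for *IRF3*. With 1 library left out the log2 fold change was -0.33 to 0.039 for *IFIH1*, -0.51 to 0.072 for *TLR3*, -0.17 to 0.025 for *TBK1*, -0.045 to 0.037 for *IRF3*, -0.55 to -0.14 for *DDX58*, -0.19 to -0.09 for *SAMHD1* and 0.05 to 0.15 for *MAVS*. *IFIH1* fell under the filter in batch A alone, and the interaction gave 0 calls under each alternative run.

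The counts that moved by over 1.5 times were those without a batch term (2143 of all genes and 20 of the pathway genes) and without a fold limit (6301 and 61), against 3237 and 31. Of the 31 pathway genes called, 15 stayed called in every fit and 16 lost the call in at least 1. Without a batch term 11 lost it, among them *CYLD*, *PPP1CA*, *HMGB1*, *RNASEH2A*, *OAS3* and *EIF2AK2*. In batch A alone 6 did (*CYLD*, *PPP1CA*, *HMGB1*, *XRN1*, *TRAF2* and *RNASEH2B*) and in batch B alone 6 others (*MRE11*, *PRKDC*, *EIF2AK2*, *IKBKE*, *OAS3* and *RNF135*). With 1 library left out, adjusted p-values stayed under 0.1 (limma) but the log2 fold change came just under the fold limit of 0.58 for *MRE11* (-0.58), *PRKDC* (-0.58) and *EIF2AK2* (-0.56) without non-senescent A2, for *PRKDC* (-0.58) without senescent A1, and for *EIF2AK2* (-0.55) and *IKBKE* (-0.58) without senescent A2. With a pseudocount of 8 *IKBKE* was not called. Scaling to the same total moved the split of all calls from 1605 higher and 1632 lower to 1227 and 2098, and the median of all genes to -0.09. The cause was not tested. The exact permutation p within batches was 0.214 for *TREX1* alone and 0.00476 for the sum of *TREX1* and *ATRIP* (difference -0.73), in which most reads were of *ATRIP*. The sum was not called with a pseudocount of 8 (-0.54) or in batch B alone (-0.67). With 1 library left out the sum stayed called, at -0.77 to -0.68.

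No pairing by replicate number was seen, since same-numbered samples had deviations correlated by -0.051 to 0.016 over 6 pairs. The pairs A1 and A2 had the same value, -0.051, because with 2 samples per group their deviations mirror each other. With the replicate block 0 sensing genes, 31 pathway genes and 3211 of all genes were called. For *DDX58*, *IFIH1*, *TLR3*, *TREX1* and *DHX58*, with 2 to 70 reads per group, depth limits what could be seen.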
